A study of Caenorhabditis elegans with 2 samples.

Results

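On the autosomes of Caenorhabditis elegans, DPL-1 left 599 summits that passed a reproducibility filter. Each stood in the promoters of at least 1 gene on either strand. Peaks were called from ChIP-seq, chromatin immunoprecipitation with sequencing, which locates a protein on the genome, in 1 group of 2 biological replicates. The worms were whole L4 larvae, males and females pooled, of strain OP105. Both replicates carry the unc119(ed3) allele and the transgene wgIs105, in which dpl-1 is joined to TY1, EGFP and FLAG and which also holds unc119. The labels give the age as unknown, and all cell types of the animal are mixed in each library. The description speaks of ChIP against the eGFP fusion while the antibody field reads dpl-1. There is no second stage, genotype or treatment, so every comparison below is between classes of summits or genes, not between conditions.

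The summits come from the 3369 pooled peaks that the authors kept at their irreproducible discovery rate (IDR) threshold, in the list called optimal. IDR is a filter meant for peaks that rank alike in replicates. A summit on chromosomes I to V was a member where at least 1 plus-strand and at least 1 minus-strand protein-coding gene had a transcript start in reach, the summit being no more than 500 bp upstream or 200 bp downstream of each. The rule uses positions only, and it took 599 of the 3369 IDR summits (17.8%, exact 95% Clopper-Pearson interval 16.5 to 19.1%). Autosomes held 1937 summits in a start window, so 30.9% of those served both strands (interval 28.9 to 33.0%), while 1338 lay in windows of 1 strand only and 1041 autosomal summits lay outside all windows. With the window narrowed to 200 bp upstream and 100 bp downstream, 198 summits met the rule. Members numbered 156 on chromosome I, 98 on II, 154 on III, 96 on IV and 95 on V. In the same order these were 33.3%, 26.8%, 35.3%, 29.1% and 28.2% of the window summits on each chromosome. On the X chromosome, which the rule leaves out, 22 of 187 window summits (11.8%, interval 7.52 to 17.3%) had a start on both strands. Library depth is unknown, since no read counts are given, and all intervals cover the counting of peaks or genes only.

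DPL-1 belongs to the DP family, whose members pair with E2F transcription factors to bind DNA, and it is part of DRM, the DREAM-type complex of worms, known for keeping cell cycle genes repressed. E2F proteins bind GC-rich sites, and LIN-54, another DRM subunit, binds a TTTGAA-like element called CHR. Genes of C. elegans lie close together, and many neighbours are transcribed away from each other from 1 short stretch. The mature start of many worm transcripts is made by trans-splicing, in which a leader RNA is joined to an acceptor site, so transcription may begin well upstream of the start that the annotation gives.

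The 7 stretches that follow show what such a shared promoter looks like. Each is the plus strand of the ce11 (WBcel235) genome between the bodies of a minus-strand gene, which is read leftward from just before the first base, and a plus-strand gene, which is read rightward from just after the last, or at most 300 bases of that gap around the summit. The first 3 are among the strongest with an E2F site on chromosomes II to V, and capitals mark the site: chrIV:12724761-12724985, chrIII:1080776-1080900 and chrII:11874789-11875088.
T23F6.3/rbd-1: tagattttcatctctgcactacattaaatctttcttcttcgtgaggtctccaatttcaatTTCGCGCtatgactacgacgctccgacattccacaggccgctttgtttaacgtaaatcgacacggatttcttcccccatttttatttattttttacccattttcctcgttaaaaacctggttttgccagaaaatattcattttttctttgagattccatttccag
rab-18/kbp-4: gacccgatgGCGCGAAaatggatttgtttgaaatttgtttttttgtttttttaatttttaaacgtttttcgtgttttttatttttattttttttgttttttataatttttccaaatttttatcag
npp-3/top-2: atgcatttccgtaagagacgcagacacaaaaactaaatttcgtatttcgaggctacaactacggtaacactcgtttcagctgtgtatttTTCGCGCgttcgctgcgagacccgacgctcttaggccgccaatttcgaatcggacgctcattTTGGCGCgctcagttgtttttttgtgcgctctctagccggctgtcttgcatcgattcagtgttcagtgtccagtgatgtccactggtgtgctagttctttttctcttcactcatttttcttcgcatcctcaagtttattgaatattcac
In the T23F6.3/rbd-1 stretch the site TTCGCGC begins at base 61 and its centre lies 19 bp left of the summit. In the rab-18/kbp-4 gap, which is 125 bases long, the site is on the minus strand, and the summit lies outside the stretch, 21 bp inside the annotated rab-18 transcript. The npp-3/top-2 stretch holds 2 sites on the plus strand, TTCGCGC with its centre 3 bp right of the summit and TTGGCGC 65 bp right of it.

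The next 4 stretches carry the contrast. The haf-3/F57A10.2 and rpl-15/K11H12.8 promoters (chrV:15766244-15766543 and chrIV:654780-655079) are the strongest on chromosomes II to V with a GAGAG run, in capitals, and no E2F site. The rpl-20/Y17G9B.5 and rpl-12/lin-54 promoters (chrIV:4749926-4750225 and chrIV:13240652-13240951) are other strong members with a ribosomal protein gene, and capitals mark an E2F site in the second of them.
haf-3/F57A10.2: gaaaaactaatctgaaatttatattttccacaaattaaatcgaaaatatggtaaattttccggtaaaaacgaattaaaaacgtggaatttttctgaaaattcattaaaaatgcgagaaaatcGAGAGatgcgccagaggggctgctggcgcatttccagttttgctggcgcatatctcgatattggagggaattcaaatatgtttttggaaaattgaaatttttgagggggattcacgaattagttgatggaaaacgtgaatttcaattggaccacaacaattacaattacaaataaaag
rpl-15/K11H12.8: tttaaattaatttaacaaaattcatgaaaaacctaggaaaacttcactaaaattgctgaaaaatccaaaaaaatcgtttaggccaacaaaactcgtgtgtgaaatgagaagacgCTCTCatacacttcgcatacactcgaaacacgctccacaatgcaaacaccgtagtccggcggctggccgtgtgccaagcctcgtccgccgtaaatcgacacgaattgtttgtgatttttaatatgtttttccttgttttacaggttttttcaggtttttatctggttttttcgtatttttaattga
rpl-20/Y17G9B.5: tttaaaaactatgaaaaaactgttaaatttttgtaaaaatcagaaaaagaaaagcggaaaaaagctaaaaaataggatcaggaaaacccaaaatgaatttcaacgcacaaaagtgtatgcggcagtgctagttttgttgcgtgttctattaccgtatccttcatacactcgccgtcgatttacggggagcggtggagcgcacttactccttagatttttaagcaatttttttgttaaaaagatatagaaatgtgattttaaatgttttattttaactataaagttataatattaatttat
rpl-12/lin-54: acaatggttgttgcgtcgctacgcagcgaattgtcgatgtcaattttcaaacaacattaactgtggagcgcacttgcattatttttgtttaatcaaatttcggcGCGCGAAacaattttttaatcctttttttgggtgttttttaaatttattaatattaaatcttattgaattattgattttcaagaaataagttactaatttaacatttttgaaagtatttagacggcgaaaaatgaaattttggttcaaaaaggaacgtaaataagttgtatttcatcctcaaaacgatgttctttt
The rpl-20 stretch holds none of the E2F, CHR or GAGAG letters although its pooled signal is 1325. The rpl-12 summit had 2 E2F sites within 100 bp, of which the stretch holds a minus-strand TTCGCGC 82 bp right of the summit, on the lin-54 side.

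In 596 of 599 members the nearest minus-strand start lay left of the nearest plus-strand start, so the genes point away from each other. The rule uses these starts, and 1800 of all 1855 pairs with overlapping windows, bound or not, have the same layout. The exceptions are Y50D4A.4/wrb-1, rec-1/pif-1 and rpb-7/Y54E10BR.2, whose nearest starts overlap by 55, 15 and 3 bp (gaps of -55, -15 and -3 bp). The 599 summits served 1194 genes and 591 distinct nearest pairs. Of the members, 586 had exactly 1 gene on each strand in reach, and 13 had more.

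Summits mostly lay inside the gap and near its middle, a position that the rule partly fixes. In 550 of 599 members (91.8%, interval 89.3 to 93.9%) the summit was between the starts, and in another 46 the pair was divergent with the summit just beyond 1 start. The median gap between starts was 378 bp (quartiles 257 and 519 bp, n = 599). The smallest divergent gap was 12 bp, at F32D8.14/F32D8.5, and the largest was 947 bp, at snf-6/mtg-1, where the summit lay 452 bp and 495 bp upstream of the starts. Among the 550 summits between starts, the median distance from the midpoint was 53.5 bp (order-statistic 95% interval 49.5 to 60 bp), and 258 (46.9%) lay within 50 bp of it. In 5 equal bins from the minus-strand to the plus-strand start, the gaps held 51, 113, 193, 141 and 52 summits, so the middle bin held 35.1% and the outer ones 9.27% and 9.45%. A summit near a start of a wide gap leaves the window of the other gene, so the rule itself thins the ends of gaps over 500 bp. The shared window is centred on the midpoint at any gap. From a gap of 500 bp on it lies wholly inside the gap, so a summit there could not fall elsewhere. How much of these shares comes from the rule was not tested. Neither strand was favoured: 304 of 599 summits (50.8%, interval 46.7 to 54.8%) were nearer the plus-strand start. The median distance to the nearer start was 122 bp in members (interval 113 to 130 bp), against 170 bp in 1-strand promoters (162 to 180 bp), where no second start offers a chance to be closer.

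**Figure D1:**
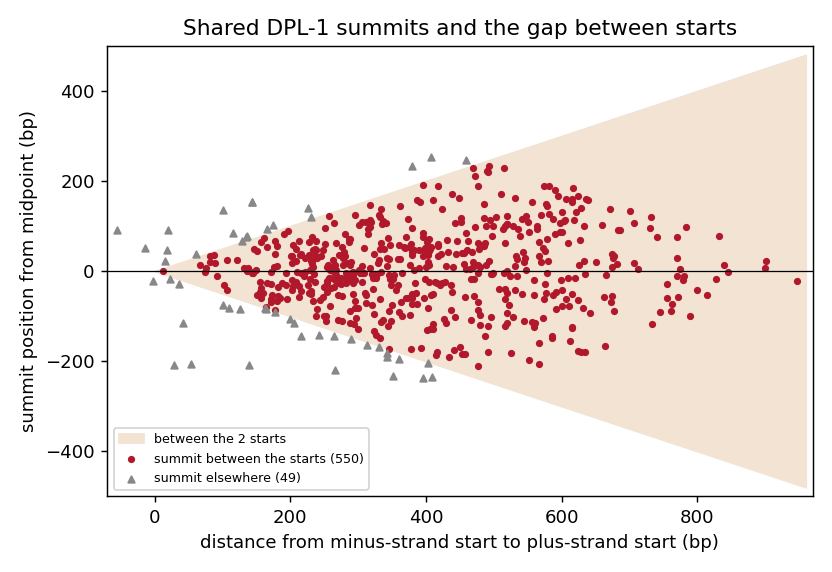
Each point is a member. The x axis is the distance from the minus-strand to the plus-strand start and the y axis the summit's position from the midpoint, both in bp. The 550 summits between the starts (circles) fill the shaded wedge mostly near its centre line, and the other 49 (triangles) lie outside it, mainly at short gaps.

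The side on which a summit sat within the gap went with the kind of annotated start. A trans-splice acceptor ends in CAG, and 490 of the 1198 member starts (40.9%, interval 38.1 to 43.7%) were directly preceded by CAG, against 22.1% of the most upstream starts of all 17242 autosomal genes (21.5 to 22.7%). The member starts were those nearest each summit, so they were chosen differently from the comparison starts, which also include unbound genes. CAG came before both starts in 84 members and before neither in 193. The median offset of the summit was -219 bp from starts with CAG (interval -237 to -198 bp, n = 490) and -146 bp from starts without it (-157 to -134 bp, n = 708), where negative values are upstream. Of the 322 members with CAG at 1 start only, 218 (67.7%, interval 62.3 to 72.8%) had the summit nearer the start without it. A CAG before a start is a match of letters, and whether a given transcript is trans-spliced was not measured.

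Shared windows were occupied at a high rate. Of 1855 autosomal pairs of opposite-strand genes whose start windows overlap, 604 (32.6%, interval 30.4 to 34.7%) held an IDR summit in the overlap, against 14.5% of the 17242 autosomal protein-coding genes with a summit anywhere in their window. Genes with an opposite-strand start in reach were bound, meaning that an IDR summit lay in their window, in 1378 of 3635 cases (37.9%, interval 36.3 to 39.5%). Genes without one were bound in 1116 of 13607 cases (8.2%, interval 7.75 to 8.68%). Without the chemoreceptors, nuclear hormone receptors and collagens, large families that were rarely bound, the shares were 39.6% of 3458 genes and 9.12% of 12133 genes. Members supplied 1194 of the 2494 bound autosomal genes (47.9%), which is 6.92% of all autosomal genes, and 184 bound genes with an opposite-strand start in reach had their summit outside the shared overlap. A gene next to an opposite start can be counted through its neighbour's summit, so these genes are not independent of each other and no test was made.

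Of the pairs, 595 of 1800 divergent ones (33.1%) and 9 of 55 with overlapping starts (16.4%) were occupied. Occupancy varied with the width of the gap. Of divergent pairs with a gap up to 200 bp, 80 of 262 (30.5%) held a summit in the overlap, and the share was 251 of 483 (52%) from 200 to 400 bp. It was 186 of 403 (46.2%) from 400 to 600 bp and 78 of 652 (12%) from 600 to 1000 bp. The overlap of the windows widens with the gap in the first class, is widest from 200 to 400 bp and shrinks beyond. The other shares therefore all have less room behind them, the last the least. How far occupancy follows this room was not tested. Signal changed little with the gap: its median was 189, 180, 176 and 205 in the 4 classes in the same order, with overlapping intervals.

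Members had a higher median signal than other bound promoters and were less often among the weakest. The pooled signal is the authors' value per peak relative to a control, and the sources used here do not state its scale. Its median was 183 in members (interval 166 to 202, quartiles 99.7 and 337), against 120 in 1-strand promoters (112 to 129, quartiles 69.7 and 305) and 73.0 outside promoters (70.6 to 76.4). The ratio of medians between members and 1-strand promoters was 1.52 (1.29 to 1.80), and it was 0.99 (0.81 to 1.18) among peaks at or above the median signal of the IDR list. Of members 14.0% were in the lowest signal quartile of all promoter summits, against 29.9% of 1-strand summits. In the next quartiles upward the shares were 24.4% of members and 25.3% of 1-strand summits, then 33.9% and 21.0%, and in the highest quartile 27.7% and 23.8%. Of the 20 strongest promoter summits 1 was a member (5%, interval 0.127 to 24.9%), and the highest member signal was 1776, against 5205 in 1-strand promoters. Members made up 27 of the strongest 100 and 168 of the strongest 500 (33.6%), beside 30.9% of all autosomal promoter summits. Member peaks had a median width of 234 bp (228 to 245 bp), against 315 bp in 1-strand promoters (300 to 344 bp).

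**Figure D2:**
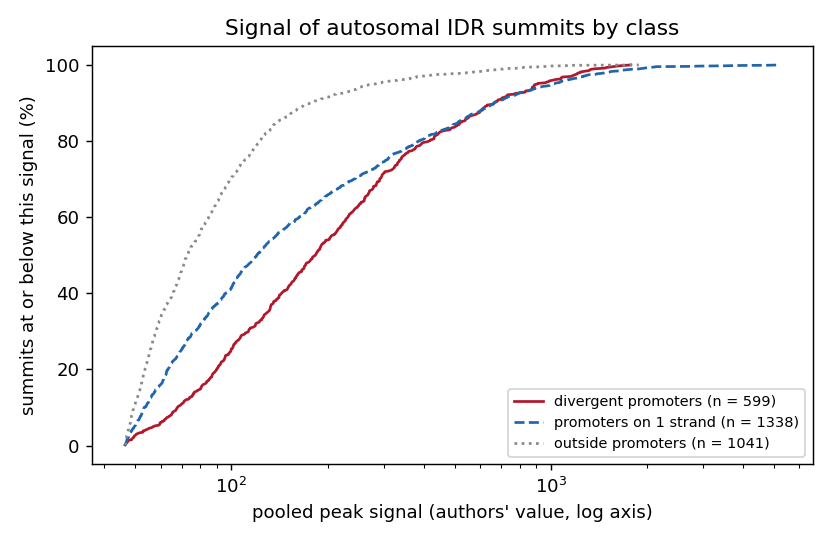
Cumulative share of autosomal IDR summits (y axis, percent) at or below each pooled signal (x axis, log scale) in members, 1-strand promoters and outside promoters. The member curve lies below the 1-strand curve through the median (183 against 120) and the upper quartile (337 against 305), and the 1-strand curve alone runs on to 5205.

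Among the 20 strongest shared promoters, 6 had a ribosomal protein gene and 3 a listed mitosis gene, and several genes are known by sequence name only. T23F6.3/rbd-1 had the highest pooled signal, 1776, with 908 in replicate 1 and 921 in replicate 2. The gene rbd-1 encodes an RNA-binding protein of ribosome biogenesis, and the summit lay 83 bp upstream of T23F6.3 and 143 bp upstream of rbd-1. The pair rab-18/kbp-4, a Rab GTPase gene of vesicle traffic and a kinetochore gene, had 1668, with 836 and 841 in replicates 1 and 2. Next was clsp-1/eef-2 with 1599 (739 and 826), joining the claspin gene of the replication checkpoint to the gene of translation elongation factor 2, whose start lay only 25 bp from the summit.

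The ABC transporter gene haf-3 and F57A10.2 shared a summit of 1490, with 706 in replicate 1 and 788 in replicate 2. The nucleoporin gene npp-3 and the topoisomerase II gene top-2 shared one of 1478 (755 and 734). At rps-19/hsr-9, with a ribosomal protein gene, the signal was 1332 (522 and 816), and hsr-9 encodes the worm relative of the DNA damage protein 53BP1. At rpl-20/Y17G9B.5 it was 1325 (604 and 702), and at Y53F4B.9/Y53F4B.11 it was 1312 (660 and 660). The 8 promoters in this and the preceding paragraph ranked within the strongest 60 of each replicate's 30000 relaxed peaks, except that rps-19/hsr-9 and rpl-20/Y17G9B.5 ranked 91 and 64 in replicate 1.

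Below them came rpl-12/lin-54 with 1272 (603 in replicate 1 and 642 in replicate 2), where the summit lay 26 bp upstream of the ribosomal protein gene and 367 bp upstream of the DRM subunit gene. The rpl-15/K11H12.8 summit had 1239 (424 and 821), and W02H5.16/W02H5.19 had 1236 (525 and 695). The translesion polymerase gene polh-1 and rps-22 shared a summit of 1212 (488 and 711). T10B5.3/knl-3, with a kinetochore gene 415 bp away, had 1209 (583 and 644), and hpr-17/F32A11.1, with a Rad17-type checkpoint gene, had 1197 (632 and 564). F01F1.11/F01F1.3 had 1180 (588 and 603) with a gap of only 61 bp. ZK795.2/ZK795.3 had 1168 and was the most uneven of the strongest members, with 879 in replicate 1 and 338 in replicate 2. The splicing coactivator gene rsr-1 shared a summit of 1158 (522 and 648) with the chemoreceptor gene sri-5, and the bZIP gene zip-4 shared one of 1089 (581 and 503) with the nucleolar gene nol-58.

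Members were found again in each replicate. A relaxed summit lay within 100 bp in both replicates for 577 of 599 members (96.3%, interval 94.5 to 97.7%), against 93.1% of 1-strand summits (91.6 to 94.4%) and 87.6% of summits outside promoters (85.5 to 89.5%). Replicate 1 alone held 8 of the rest, replicate 2 alone held 13, and 1 member was matched in neither. Across the 577 members, which are peaks of the same 2 libraries and not replicates, the log10 signals in replicates 1 and 2 correlated with Spearman's rho at 0.87 and Pearson's r at 0.86. The signal was slightly higher in replicate 2 over all 577, with a median log10 difference (replicate 2 minus replicate 1) of 0.042 (interval 0.024 to 0.057). The median distance between the summits of the replicates was 16 bp, against 17 bp in 1-strand promoters and 34.5 bp outside promoters. The IDR filter itself favours peaks that rank alike in the replicates, though not every kept member did, so these shares describe what it kept.

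**Figure D3:**
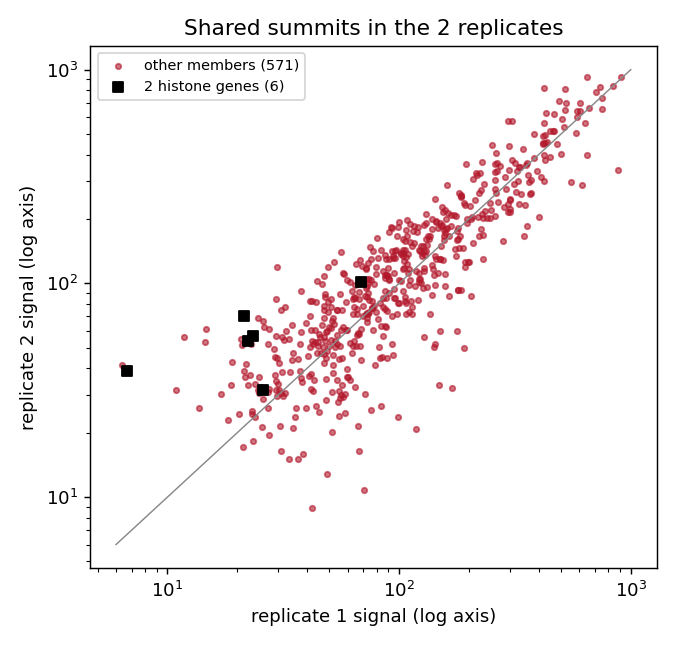
Signal of 577 members in replicate 1 (x axis) and replicate 2 (y axis), both log scales, with the line of equal signal. Members with 2 histone genes (6 squares) all lie above the line at low signal, and most other members follow the line.

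A few weak members rested largely on 1 library. C55A6.1/C55A6.10 had 6.38 in replicate 1, where it ranked 29953 of 30000, and 41.4 in replicate 2. The histone pair his-31/his-32 had 6.70 and 38.9, and fbxc-44/C16A11.2 had 10.9 and 31.7 in replicates 1 and 2. The reverse held at B0205.8/B0205.12, with 42.2 in replicate 1 and 8.93 in replicate 2, at Y55F3AM.13/mrps-25, with 70.2 and 10.8, and at rbm-42/grwd-1, with 49.0 and 12.8. Taking the strongest 3369 peaks of a single replicate in place of the IDR list gave 573 members from replicate 2 and 584 from replicate 1.

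E2F sites were as frequent in members as in other bound promoters. Within 100 bp of the summit, on either strand, 131 of 599 members (21.9%, interval 18.6 to 25.4%) held 1 of 4 E2F words: TTCCCGC was in 29 members, the word TTGGCGC in 47, the word TTCGCGC in 46 and the word TTGCCGC in 21. A word of this set was in 22.2% of 1-strand promoter summits, 17.1% of summits outside promoters and 7.07% of windows of the same length centred 150 bp upstream of each of 17242 autosomal genes. The letters of the E2F words read backwards, which have the same composition, were in 15.5% of members (12.7 to 18.7%), 12.9% of 1-strand summits and 3.65% of all promoters, so these too were more frequent at summits than in promoters at large. Median GC content of the windows was 37.8% in members, 39.8% in 1-strand promoters and 33.3% in all promoters. Midpoints of divergent pairs that held a shared summit had an E2F site in 16.3% of 595 cases (13.4 to 19.5%), against 5.89% of 1205 pairs that held none (4.63 to 7.37%).

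The E2F share followed the signal. From the lowest to the highest signal quartile it was 8.33%, 11%, 21.2% and 39.2% in members, and the 1-strand promoters had 12%, 14.8%, 28.5% and 37.3%. Members with a site had a median signal of 299 (232 to 379, n = 131), against 161 (141 to 179, n = 468) for members without. The 151 matches lay at a median of 31 bp from the summit, and 76.2% of them within 50 bp. They showed no preference within the gap, with 76 of 149 on the side of the nearer start and 80 of 151 on the plus strand.

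The CHR element and the GA repeat behaved differently from the E2F site. TTTGAA or TTCGAA lay within 100 bp of 371 members (61.9%, interval 57.9 to 65.8%), against 54.9% of 1-strand summits (52.2 to 57.6%), 37.8% outside promoters and 56.9% of all promoters. At midpoints of divergent pairs with a shared summit the CHR share was 57.5% of 595 (53.4 to 61.5%). Without a shared summit it was 59.1% of 1205 (56.3 to 61.9%), so bound and unbound pairs were alike. The difference from 1-strand promoters sat in weak peaks: in the lowest signal quartile 58.3% of members (47.1 to 69.0%) and 39.8% of 1-strand summits (34.9 to 44.7%) held the element, and in the highest quartile 72.9% and 79.6%. GAGAG was in 222 members (37.1%, interval 33.2 to 41.1%), against 46.9% of 1-strand summits (44.2 to 49.7%), 69.6% outside promoters and 28.1% of all promoters. From the lowest to the highest quartile it was in 34.5%, 36.3%, 34.0% and 42.8% of members. In 1-strand summits the shares were 51.5%, 52.4%, 43.1% and 38.9%. None of the 3 elements was present in 107 members (17.9%).

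CHR elements were sparse at the summit and more frequent on its flanks. Members had 10.4 CHR matches per 100 summits with their centre within 25 bp of the summit, and 61.1 at 26 to 75 bp, a zone about 2 times as wide. In 1-strand promoters the values were 11.6 and 52.3. E2F matches were 10.4 and 13.4 per 100 members in the same zones, so they were denser at the centre. GAGAG matches, at 25.4 and 31.6 per 100 members, were denser there too. In bins of 25 bp, the CHR matches of the 599 members numbered 30 and 31 nearest the summit. Bins beside these, centred up to 63 bp away, held 83 to 102, and bins farther out held 48 to 84. Mean GC content of members was 50.9% within 25 bp of the summit, 36.2% at 26 to 75 bp and 29.4% at 76 to 100 bp. By letters alone, GC-rich sequence holds fewer matches of an AT-rich element and more of a GC-rich one such as the E2F site. The part of base composition in the positions of the CHR and E2F matches was not tested.

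**Figure D4:**
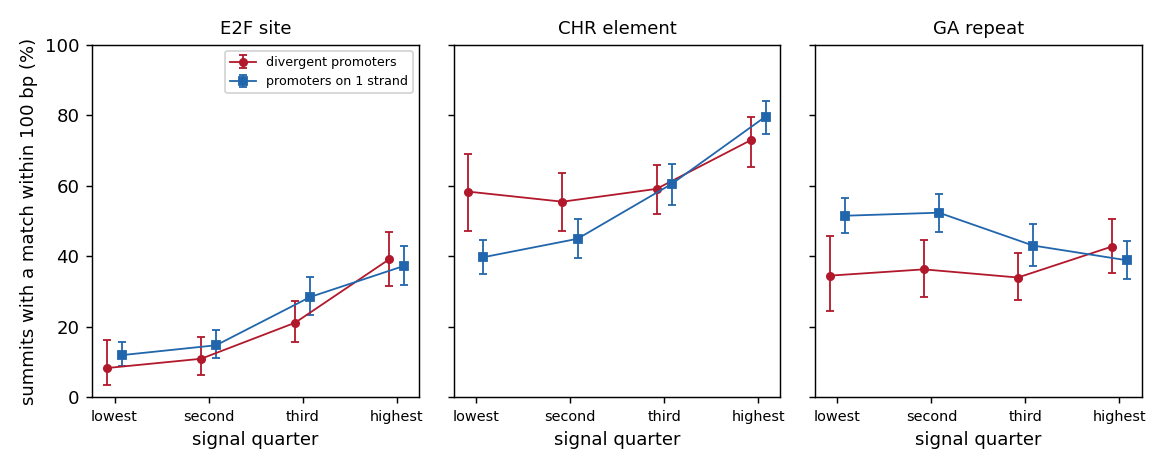
Share of summits (y axis, percent, with exact 95% intervals) with an E2F site, a CHR element or a GA repeat within 100 bp, by signal quartile of all autosomal promoter summits (x axis, lowest to highest), in members and in 1-strand promoters. E2F shares climb to 39.2% in members and 37.3% in 1-strand promoters. The classes stand apart for CHR in the lowest quartile and for the GA repeat in the lowest and second quartiles.

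Genes of 22 lists, from cell division to chemoreception, show which kinds of gene sit at shared promoters. The lists hold 2537 autosomal genes, of which 516 were bound (20.3%), 293 of them through a member summit. The counts by layout that follow stand beside 37.9% of all autosomal genes bound with an opposite-strand start in reach and 8.2% without, and no difference between a list and all genes was tested. Of the 599 members, 48 had a listed gene on both strands, 203 on 1 strand and 348 on neither. Among members with a listed gene on 1 strand, the summit was nearer that gene in 92 of 203 (45.3%, interval 38.3 to 52.4%).

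Replication and mitosis genes were bound at most of the shared windows they had. Of 46 autosomal DNA replication genes 36 were bound, 17 of them through a member, and 22 of the 23 with an opposite-strand start in reach were bound against 14 of 23 without. The strongest were the Timeless gene tim-1 (1078, shared with Y75B8A.23), the replisome gene ctf-4 (1076, shared with eef-1G) and the primase gene pri-2 (1014, shared with W02D9.2). Of 79 mitosis genes 55 were bound, 36 through a member, with 37 of 42 bound where an opposite start was in reach and 18 of 37 where none was. Of 55 repair and checkpoint genes 24 were bound, 11 through a member, with 14 of 24 and 10 of 31 in the same 2 layouts, led by polh-1, hpr-17 and the nuclease gene mre-11 (701, shared with wdr-5.3). Of 11 centrosome genes 6 were bound, 4 through a member, led by pcmd-1 (680), the centriole gene sas-6 (431) and spd-2 (260).

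The E2F site was frequent at shared promoters of mitosis genes. It was present at 24 of the 36 members with a mitosis gene (66.7%, interval 49.0 to 81.4%), and the reversed words were present at 4 (11.1%, 3.11 to 26.1%). The counts were 8 of 17 members with a replication gene (47.1%, interval 23.0 to 72.2%) and 7 of 11 with a repair or checkpoint gene, beside 131 of 599 over all members. At the replication members the reversed words were present in 4 of 17 (23.5%, 6.81 to 49.9%), so those intervals overlap. A CHR element was at 33 of the 36 mitosis members (91.7%, interval 77.5 to 98.2%), at 14 of 17 replication members and at all 11 repair members, beside 61.9% over all members. The summit was nearer the mitosis gene in 18 of 36 cases and nearer the replication gene in 11 of 17, with a median offset of -154 bp from the replication gene and -306 bp from its partner.

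DRM genes stood at 3 shared promoters. Of 8 listed DRM genes 5 were bound, 3 through members: lin-54, the histone chaperone gene lin-53 (970, with 447 in replicate 1 and 515 in replicate 2, shared with nra-2) and lin-35, which encodes the retinoblastoma-family protein (581, with 330 and 235.4, shared with the vesicle tethering gene vps-51). An E2F site was near the lin-54 and lin-53 summits and not near that of lin-35. Of 24 synMuv and germline chromatin genes 14 were bound, 4 through members, led by mrg-1 (427), ash-2 (359) and rbbp-5 (231).

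Ribosomal protein genes were the list most bound overall and sat far from the summit. Of 76 autosomal genes 68 were bound, 40 through a member, with 44 of 47 bound where an opposite-strand start was in reach and 24 of 29 where none was, so the layouts were close. In the 34 members with a ribosomal protein gene on 1 strand, the summit was nearer that gene in 9 (26.5%, interval 12.9 to 44.4%), and the median offset was -305 bp from it and -178.5 bp from its partner. CAG directly preceded 33 of the 40 ribosomal protein starts (82.5%, interval 67.2 to 92.7%), beside 40.9% of all member starts. An E2F site was at 5 of the 37 members with a ribosomal protein gene and the reversed words at 7. Chaperone genes showed a like position, nearer in 5 of 21 cases with a median offset of -289 bp. Of 60 chaperone genes 31 were bound, 21 through members, led by the chaperonin genes cct-6 (872) and cct-8 (676) and by hsp-90 (586).

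Translation factors were bound in 27 of 36 cases, 13 through members, with eef-2, eef-1G and eef-1A.1 the strongest. Proteasome genes were bound in 27 of 33, 18 through members, led by pbs-1 (614), rpn-5 (549) and rpn-3 (436). Mitochondrial ribosomal protein genes were bound in 24 of 28 cases with an opposite start in reach and in 11 of 42 without, led by mrps-35 (863), mrpl-49 (326) and mrpl-17 (294). Respiratory chain genes were bound in 22 of 31 and 14 of 30 cases in those layouts, led by cox-14 (621), cox-6B (598) and nduv-3 (571), and only 2 of their 22 members held an E2F site.

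Splicing genes were bound in 20 of 24 cases with an opposite start in reach and in 6 of 20 without, led by sap-140 (732), snr-2 (519) and rsp-3 (506). Genes of the Mediator, the coactivator of RNA polymerase II, were bound in 6 of 7 and 1 of 16, led by mdt-22 (723), mdt-18 (279) and mdt-9. RNA polymerase and general transcription factor genes were bound in 10 of 12 and 12 of 35, led by taf-6.2 (399), rpb-3 (350) and taf-11.3 (291). Nucleoporin genes were close in the layouts, with 9 of 12 and 10 of 14, and npp-3, npp-14 (699) and npp-15 (263) the strongest. Vesicle traffic genes were bound in 17 of 28 and 17 of 59, led by rab-18, vps-51 and trpp-10 (525). Aminoacyl-tRNA synthetase genes were bound in 6 of 12 and 6 of 20, led by ears-2 (270), nars-1 (138) and aars-1 (104).

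**Figure D5:**
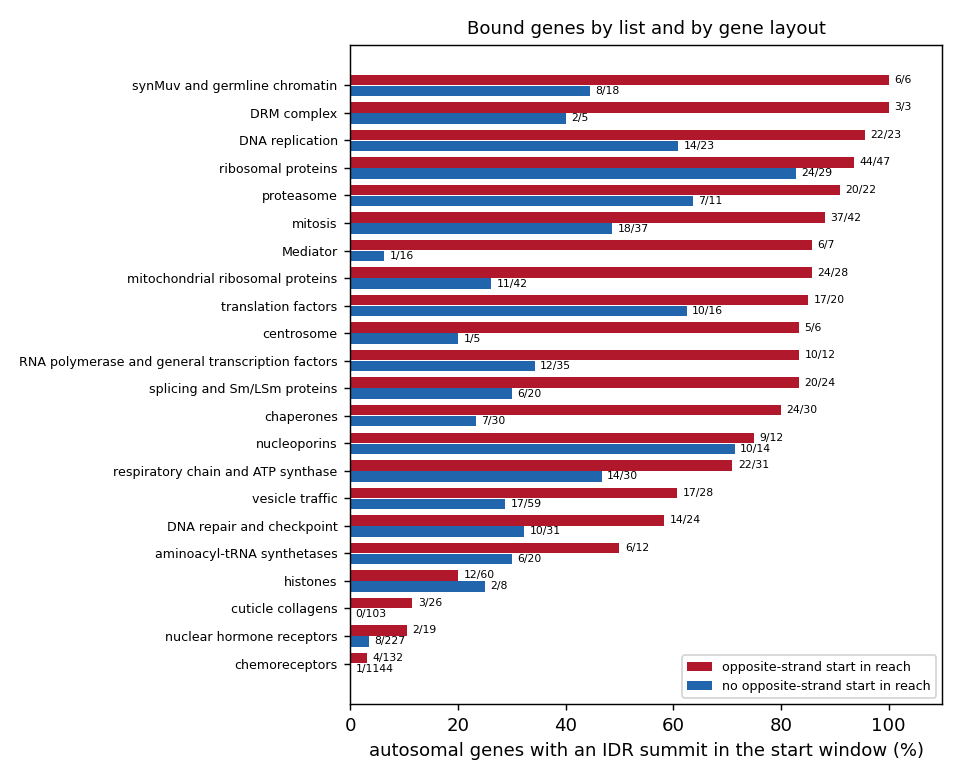
Share of the autosomal genes of each list with an IDR summit in the start window (x axis, percent), for genes with an opposite-strand start in reach (upper bar) and without one (lower bar), with counts beside the bars. The upper bar is longer in every list but the histones, where 12 of 60 genes with an opposite start in reach and 2 of 8 without were bound.

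Histone genes lie mostly in divergent pairs. Of 68 autosomal histone genes 14 were bound (20.6%), beside 14.5% of all autosomal genes. An opposite-strand start was in reach of 60 of them, and 12 of these were bound, through 6 members, beside 37.9% of all genes in that layout. The pair his-67/his-68 was the strongest with 167 (68.3 in replicate 1 and 101 in replicate 2). The pair his-4/his-3 had 92.6 (21.3 and 70.5), his-60/his-59 had 84.7 (23.5 and 56.7), and his-61/his-62 had 83.5 (22.3 and 54.0). The weakest, his-35/his-41 and his-31/his-32, had 65.4 (25.8 and 31.7) and 46.6. All 6 were higher in replicate 2. Over the 577 members found in both replicates, the median log10 difference (replicate 2 minus replicate 1) was only 0.042 (quartiles -0.081 and 0.144). Several histone pairs differed by far more, such as his-31/his-32 with 6.70 in replicate 1 and 38.9 in replicate 2. None held an E2F site and 4 held GAGAG, beside 21.9% and 37.1% of all members. Histone genes of a type are near copies of each other, so reads that map to several of them may be placed at any, and these values are uncertain.

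Chemoreceptors, cuticle collagens and nuclear hormone receptors supplied few of the genes at members. Of 1276 autosomal chemoreceptor genes 5 were bound, 4 through members, among them sri-5 (1158) and srd-4 (540, shared with usip-1), and the summit was nearer the chemoreceptor gene in 2 of the 4. Of 129 cuticle collagen genes 3 were bound, all through members: col-38 (885, shared with rpl-5), col-2 (283, shared with the kinetochore gene ndc-80) and col-71 (169, shared with Y49F6B.2). In all 3 collagen pairs the summit was nearer the other gene, with offsets of -432 bp from col-38 and -407 bp from rpl-5, -435 bp from col-2 and -251 bp from ndc-80, and -250 bp from col-71 and -148 bp from Y49F6B.2. Of 246 nuclear hormone receptor genes 10 were bound, 2 through members, nhr-47 (388, shared with the chaperone gene dnj-19) and nhr-68 (141, shared with H12C20.7). The offsets were -7 bp from nhr-47 and -389 bp from dnj-19, and -393 bp from nhr-68 and -57 bp from H12C20.7.

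The 48 members with a listed gene on both strands mostly joined different functions, with 13 in which the genes belong to the same list. The first 4 have been given above, namely rab-18/kbp-4, npp-3/top-2, rpl-12/lin-54 and polh-1/rps-22. The replisome gene ctf-4 and the elongation factor gene eef-1G had 1076 (468 in replicate 1 and 624 in replicate 2), and eef-1A.1 and the clamp loader gene rfc-4 had 875 (418 and 451). The origin recognition gene orc-5 and the cyclin B gene cyb-1 had 871 (434 and 456). The securin gene ify-1 and rpl-22 had 683 (317 and 365), and the spindle checkpoint gene mdf-2 and the complex I gene nduv-3 had 571 (258 and 334). The proteasome lid gene rpn-5 and the cohesin gene scc-1 had 549 (301 and 246). The chaperone gene hsp-110 and rpn-3 had 436 (239 and 203). In this set the replicate signals differed by less than 1.5 times at every promoter given here.

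Pairs within a list included rps-14/rpl-36 with 431 (185 in replicate 1 and 253 in replicate 2), rps-10/rpl-24.1 with 310 (108 and 197), and the SR splicing factor genes rsp-2/rsp-1 with 370 (153 and 227). Further mixed pairs were pas-4/rpb-3 with 350 (180 and 182), rpl-28/mrpl-49 with 326 (182 and 146), dnj-19/nhr-47 with 388 (177 and 207) and rpl-36.A/nuo-1 with 296 (121 and 183).

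Few members had a non-coding start or a further summit nearby. A non-coding gene of the tRNA, snoRNA, snRNA, miRNA or rRNA kinds started within 500 bp of 14 of 599 members, 8 of them snoRNAs, against 58 of 1338 1-strand summits. A second pooled relaxed summit lay in the shared window of 40 members (6.68%, interval 4.81 to 8.98%) and a second IDR summit in that of 16. There were 8 pairs with 2 member summits each, among them mdt-18/uri-1, with 279 at the summit nearer mdt-18 and 65.8 at the one nearer uri-1, which was absent from replicate 2.

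Some pairs lay just inside or just outside the limits of the rule. The farthest members lay 498 bp upstream of a start, at kbp-3/nurf-1 (419) and nap-1/praf-3 (150), and the farthest downstream lay at 195 bp in Y32H12A.8/W03A5.2 (203) and 179 bp in cdc-37/W08F4.3 (50.4). Just outside, at 501 bp, were clic-1/srr-10 (581), znf-706/cpna-3 (120) and ceh-100/lips-15 (47.1). Limits 50 bp wider would have added 45 summits.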

How the data were processed

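Peak lists of 2 biological replicates were analysed on ce11. Per the deposited file listings, the authors called relaxed peaks per replicate and on the pooled alignments against a control, and derived the IDR list from those 3 lists. The sources used here name no aligner or caller. The signal per peak is the authors' deposited value. The −log10 q deposited by the authors was constant in the IDR list and was not used for ranking. The summit is the peak start plus the deposited offset.

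Starts came from the Ensembl 115 annotation of WBcel235 (the same assembly) and sequence from RefSeq. Gaps use the nearest starts. Python 3.11.15, NumPy 2.4.6 and SciPy 1.17.1 gave counts, exact Clopper-Pearson and order-statistic intervals. Motifs were counted on both strands in 201 bases, overlaps allowed. The assignment and motif counts were checked on simulated data. No test was made, because 1 group of 2 replicates has no comparison of conditions and peaks are not replicates.

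Members and lists were chosen with earlier results of these data known. After the files were seen, the patterns of 3 lists (chemoreceptors, respiratory chain, chaperones) were narrowed because they matched genes of other families. Of the listed symbols, 10 matched no gene. Named genes are those of the 20 strongest members, the 3 strongest of each list, the 20 strongest pairs with listed genes on both strands, and the extremes of gap, limits and replicate difference. Of the 20 strongest members, 2 are not reported here. Alternatives were other windows, starts, signal limits, single replicates, peak positions and motif widths.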

Additional observations from a re-analysis of the deposited data

How the results depend on the processing

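Of 70 alternative values of the main results, 52 stayed within the interval of the reported value or within 1.5 times a reported count. For the ratio of medians, the range given with it stood in for the interval. With the window of 200 bp upstream to 100 bp downstream, 198 members and 98 listed genes remained in the count, 88.9% of summits lay between the starts, 25.9% of pairs were occupied and 44.9% of members held GAGAG. With the window of 1000 bp upstream, 28.7% of pairs were occupied. Among peaks at or above the IDR median signal, the ratio of median signals was 0.991 against 1.52 as reported. Of these members 26.3% held an E2F site and 98.7% were in both replicates, and the cause was not tested. With that limit 24.9% of pairs were occupied, a share that can only fall when fewer peaks are set against the same pairs. Counting only summits between the starts, 29.97% of pairs were occupied. Motif width changed the shares by construction: within 50 bp they were 16.4% for E2F, 33.9% for CHR and 27.7% for GAGAG, and within 200 bp 83.5% for CHR and 51.6% for GAGAG. Both replicates held 90.2% of members within 50 bp and 98.0% within 200 bp. Single replicates gave 573 to 584 members and 285 to 286 listed genes. Of the 20 strongest members, 7 stayed with the narrow window, 18 with the summit between the starts and 19 with the most upstream start only. No paired analysis was possible because there is 1 group. The unknown depth and signal scale limit what weak peaks can show.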

Other observations

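Many members belong to genes with no given name. Both genes carried a symbol in 304 members, 1 gene was known by sequence name only in 246, and both were in 49.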
